A study of Mus musculus with 2 samples.

Results

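The retinoblastoma family comprises 3 genes in the mouse, Rb1, Rbl1 and Rbl2, and each was found once by its symbol among the 31053 genes of both deposited libraries. They were chosen by symbol, with the levels of Rb1 in elongating spermatids of these libraries already known. The testes were taken from 8-month-old mice, and the 2 libraries compared a wild type testis sample with an Igf2bp1 knockout sample, called a conditional knockout in the design text. IGF2BP1 is an RNA-binding protein that reads methylated adenosines and stabilises bound transcripts. Cells were measured with 10x Genomics droplet sequencing, which tags each captured transcript with a unique molecular identifier (UMI). With 1 library per genotype there is no replicate check, so a difference compares these libraries, and no p-value is given. No source used here names the Cre line or the deleted part of Igf2bp1, and how many animals stand behind each library could not be settled.

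The 3 proteins, RB (Rb1), p107 (Rbl1) and p130 (Rbl2), share a pocket domain that binds E2F transcription factors. When cyclin-dependent kinases have not phosphorylated them, they hold E2F target genes silent and keep cells from entering S phase. RB mainly restrains the activating E2Fs, while p107 and p130 work with the repressive E2Fs and can join the MuvB core to form the DREAM complex, p107 mostly in cycling cells and p130 in resting ones. In the testis, RB is known for its roles in spermatogonial stem cells and in keeping Sertoli cells out of the cycle.

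Rb1 (ENSMUSG00000022105) lies on the minus strand at chr14:73183673-73325822 of GRCm38 and its principal transcript has 27 exons. Rbl1 (ENSMUSG00000027641) lies on the minus strand at chr2:157145893-157204534 with 22 exons, and Rbl2 (ENSMUSG00000031666) on the plus strand at chr8:91070057-91123844 with 22 exons. The part of Rb1 that holds its 3′ end overlaps Rcbtb2, on the opposite strand, and the corresponding part of Rbl2 overlaps Aktip, also on the opposite strand. No source used here says whether the counting used strand, so reads of these overlapping pairs may not be fully told apart. The partners' own values are given beside the results below.

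The 250 bases before the annotated start are shown for the members that the RefSeq promoter table holds (2 of 3, GRCm38.p6), because the members differ there in the motif through which the family is known to act. The Rbl1 window is chr2:157204535-157204784 on the minus strand and the Rbl2 window is chr8:91069807-91070056 on the plus strand. Both are written 5′ to 3′ on the gene's strand, and capitals mark the matches found.
Rbl1: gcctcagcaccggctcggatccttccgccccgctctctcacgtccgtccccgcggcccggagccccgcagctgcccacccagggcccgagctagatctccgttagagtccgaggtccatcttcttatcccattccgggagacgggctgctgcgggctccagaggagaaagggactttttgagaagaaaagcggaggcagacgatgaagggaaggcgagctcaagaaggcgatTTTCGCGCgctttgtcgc
Rbl2: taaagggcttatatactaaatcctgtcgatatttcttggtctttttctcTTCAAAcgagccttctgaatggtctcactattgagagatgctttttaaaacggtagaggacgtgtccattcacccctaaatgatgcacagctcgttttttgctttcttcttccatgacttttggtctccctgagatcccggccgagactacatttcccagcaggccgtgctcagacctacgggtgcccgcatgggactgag
The letters searched on both strands were the E2F forms TTTCGCGC, TTTGGCGC, TTTCCCGC and TTTGCCGC, the CHR forms TTTGAA and TTCGAA that MuvB is known to bind, and the CRE core TGACGT. The Rbl1 window held TTTCGCGC with its first base 18 bases before the start, a form that 0.258% of 32536 such windows hold, while 1.87% hold any of the 4 E2F forms. The Rbl2 window held none of the 4 E2F forms and 1 match to the CHR form TTTGAA, read on the reverse strand and 201 bases before the start, which 15.8% of windows hold. The Rbl1 window was also richer in G and C (63.6%, 24 CpG) than the Rbl2 window (46.8%, 10 CpG). These matches describe the letters in the windows and say nothing about binding.

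The wild type library held 17362 barcodes and 121257944 UMIs, the knockout library 17968 and 98033324, and 106 barcode sequences occurred in both. Clusters were named from markers, and a name is shorthand for marker-based likeness to a type. The compared classes held 94 wild type and 76 knockout spermatogonia, 1273 and 379 late spermatocytes, 1064 and 386 round spermatids, 1888 and 889 elongating spermatids, and 652 and 990 Sertoli cells. Cluster 9, with 576 wild type and 234 knockout barcodes of the round class, was named by a near tie. It scored 0.872 for late spermatocyte markers and 0.801 for round spermatid markers and took the later stage. Early spermatocytes (102 and 54) were given as levels only. In 2 of their 3 clusters Stra8, listed here as a spermatogonial marker, stood among the leading genes, and none of the early spermatocyte markers used here did. Most other barcodes resembled free RNA (10918 and 7590 empty-like barcodes) or mixtures of types (353 and 5913), and the mixtures were left out. The targeted transcript, Igf2bp1, fell in spermatogonia from 64.6 UMIs per 1000000 UMIs of the class (written CPM below; 55 UMIs) to 23.9 CPM (15 UMIs). It was 1.03 and 0.147 CPM in late spermatocytes (32 and 1 UMIs), while round spermatids (3.84 and 3.03 CPM), elongating spermatids (1.14 and 0.626 CPM) and Sertoli cells (2 and 8 UMIs) gave no call, with empty-like barcodes at 3.44 and 2.50 CPM.

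Free RNA differed between the libraries, and its level of each member is the base against which the members are read. Rb1 stood at 8.45 CPM in wild type and 17.4 CPM in knockout empty-like barcodes, Rbl1 at 3.68 and 5.09 CPM, and Rbl2 at 119 and 117 CPM. The summed level of 9 Leydig cell markers, which germ cells should lack, was 10.6 to 31.7 CPM in the 4 compared wild type germ classes and 127 to 310 CPM in the same knockout classes. Of these markers 5 to 8 were detected in the wild type germ classes (Lhcgr was at 0 in every one) and 8 or 9 in the knockout classes. A difference is called here when it reached 1.5-fold and its 95% interval left out a ratio of 1. All intervals, Poisson for levels, Clopper-Pearson for shares and conditional binomial for ratios, cover counting error only.

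Along the germ line the 3 genes followed 3 different courses, shown in the plot of levels by cell class. Rb1 was highest in spermatogonia and early spermatocytes, Rbl1 declined from spermatogonia to elongating spermatids in the wild type library, and Rbl2 was low in late spermatocytes and rose in round spermatids. These levels are a description, since the genes were chosen with results of these libraries known, and levels are compared across classes for each gene and not between genes.

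**Figure D1:**
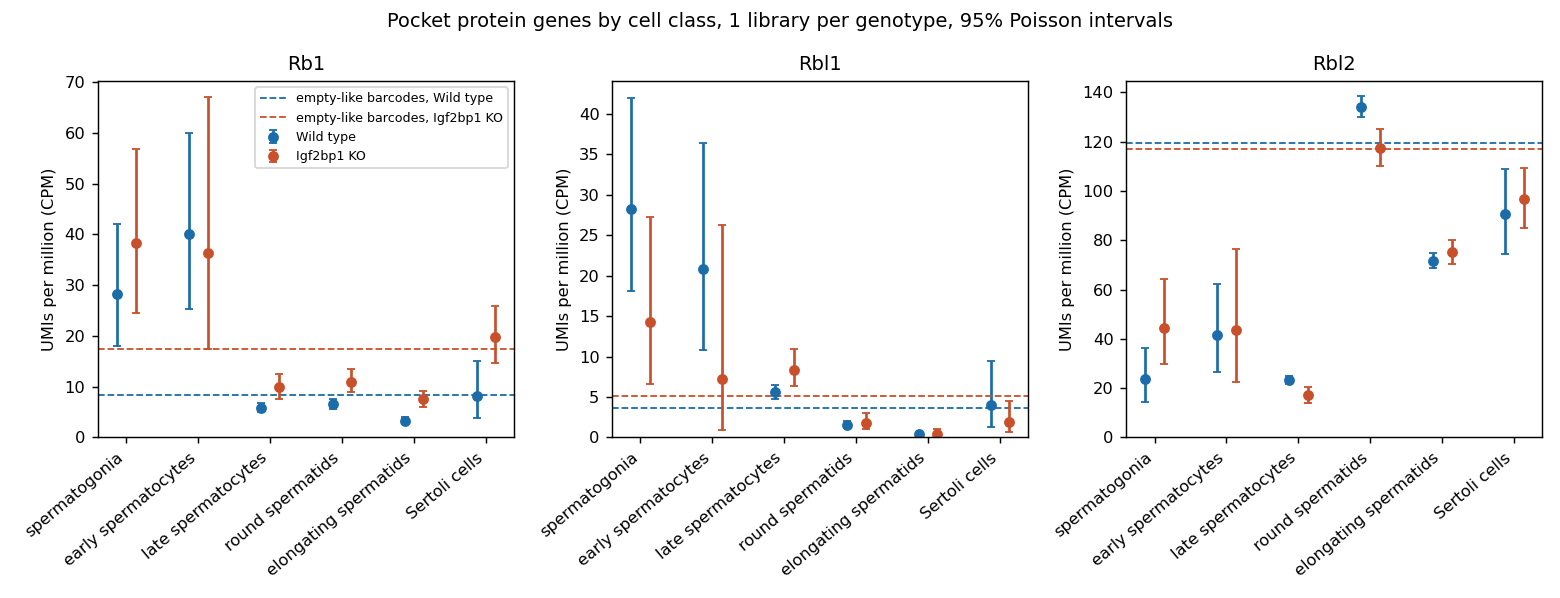
Levels (CPM) of Rb1, Rbl1 and Rbl2 in 5 germ cell classes and Sertoli cells, with 1 point per library and 95% Poisson intervals; dashed lines mark the level in empty-like barcodes of the same library. Rbl2 peaked in round spermatids (134 and 117 CPM), while Rb1 and Rbl1 were highest in spermatogonia and early spermatocytes of the wild type library.

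Rb1 held 24 UMIs in wild type spermatogonia (28.2 CPM, 18.1 to 42.0) and 23 in early spermatocytes (40.0 CPM, 25.4 to 60.0). It then stood at 5.88 CPM in late spermatocytes, 6.56 in round spermatids and 3.33 in elongating spermatids. Spermatogonia thus held a level above late spermatocytes and the spermatid classes, with intervals that did not overlap. They exceeded late spermatocytes by 2.26 on the log2 scale (1.58 to 2.88). The intervals of late spermatocytes (5.06 to 6.80) and round spermatids (5.68 to 7.54) overlapped, and that of elongating spermatids (2.73 to 4.02) lay below both. In the knockout library the order began in the same way, with 38.2 CPM in spermatogonia and 36.4 in early spermatocytes. Its later classes lay closer together, with 9.88 CPM in late spermatocytes, 11.01 in round spermatids and 7.51 in elongating spermatids, and their intervals overlapped from neighbour to neighbour. All 3 later classes lay below the Rb1 level of empty-like barcodes in both libraries.

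Rbl1 was lower at each step of the wild type germ line, though the intervals of spermatogonia (18.1 to 42.0) and early spermatocytes (10.8 to 36.4) overlapped. It went from 28.2 CPM in spermatogonia (24 UMIs) and 20.9 in early spermatocytes (12 UMIs) to 5.59 in late spermatocytes (173 UMIs), 1.56 in round spermatids (47 UMIs) and 0.370 in elongating spermatids (12 UMIs). The knockout levels were 14.33, 7.29, 8.40, 1.82 and 0.469 CPM in the same order, where early spermatocytes held 2 UMIs. Knockout spermatogonia over late spermatocytes gave a log2 ratio of 0.77 (-0.43 to 1.795), which was not called. Late spermatocytes exceeded elongating spermatids by 3.92 on the log2 scale (3.08 to 4.90) in wild type and by 4.16 (2.95 to 5.67) in the knockout. Within the late spermatocytes, cluster 16, with Piwil1 among its leading genes, held 9.28 CPM in wild type and 12.9 in the knockout. Cluster 5, with Aurka and Ccna1 among its leading genes, held 3.85 and 6.06 CPM. The intervals of the 2 clusters did not overlap in wild type (7.48 to 11.4 against 3.06 to 4.79) and overlapped narrowly in the knockout (8.69 to 18.4 against 3.99 to 8.81). Of the spermatogonial clusters, 17.1 had the highest wild type level (47.5 CPM, 14 UMIs, 3 of them in 1 cell). Its interval (25.95 to 79.6) overlapped those of the other spermatogonial clusters. Hist1h2ap, Hist1h1a (histone genes of dividing cells) and Hells were among the leading genes of cluster 17.1.

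Rbl2 took another course. It held 23.5 CPM in wild type spermatogonia (20 UMIs), 41.7 in early spermatocytes (24 UMIs) and 23.3 in late spermatocytes (722 UMIs), then 134 in round spermatids (4047 UMIs) and 71.7 in elongating spermatids (2328 UMIs). The knockout levels were 44.6, 43.7, 17.1, 117 and 75.1 CPM in the same order. Round spermatids exceeded late spermatocytes by 2.52 on the log2 scale (2.41 to 2.64) in wild type and by 2.78 (2.50 to 3.07) in the knockout. The clusters, set here in an assumed order of stages that was not computed, traced the rise and the decline. The wild type level went from 15.0 CPM in cluster 16 and 27.3 in cluster 5 to 80.3 in the near-tied cluster 9 and 188 in the round cluster 13. It then fell to 113 in cluster 18, an elongating cluster that scored second for round spermatid markers (0.451). It was 70.0 in cluster 3 and 45.9 in cluster 11, which Tmem239 led. In cluster 13, 91.6% of wild type and 85.5% of knockout barcodes carried an Rbl2 UMI (median depth 25253 and 18362.5 UMIs). The share was 12.9% and 15.9% in empty-like barcodes, which were far shallower (median 1109 and 1462 UMIs).

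After each barcode was thinned to 1000 UMIs, an Rbl2 UMI remained in 17.0% of wild type cluster 13 barcodes (13.8 to 20.6) and in 10.8% of empty-like barcodes (10.2 to 11.5). Thinned late spermatocytes of cluster 16 carried one in 0.784% (0.0951 to 2.80), well under the empty-like share. Levels of Rbl2 in spermatogonia and spermatocytes therefore stood below those of free RNA, and what part of them was free RNA was not tested. Round spermatids as a class held 134 and 117 CPM in wild type and knockout, beside 119 and 117 CPM in empty-like barcodes. Elongating spermatids lay below these (71.7 and 75.1 CPM). For Rb1 the thinned shares in germ classes after the early spermatocytes ran from 0.394% to 0.636% in wild type, beside 0.822% in empty-like barcodes, and from 0.787% to 1.32% in the knockout, beside 1.71%.

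Other genes tracked each member across the 12 profiles of 6 cell classes and 2 libraries. By Pearson's r of log2(CPM + 1) among 8088 genes with at least 500 UMIs, Rb1 was most like Ppp6r1 (0.974), Ptms (0.963), Ctsd (0.961), Mbtps1 (0.960) and Ctnnb1 (0.952). Rbl1 was most like Fancd2, a DNA crosslink repair gene (0.979), Zfp131 (0.978), Taf2 (0.977), Morc3 (0.976) and Tmem167b (0.975). Rbl2 was most like Akap3, an anchoring protein of the sperm tail (0.983), Erich3 (0.982), Creb3l4, a spermatid transcription factor (0.980), Actl7a (0.980) and Tbc1d21 (0.979). The members themselves gave 0.754 for Rb1 with Rbl1, -0.274 for Rb1 with Rbl2 and -0.692 for Rbl1 with Rbl2. Profiles of a library share its free RNA, and those of 1 class share its depth range, so these values are descriptions.

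In the somatic types, levels were read against the same free RNA. Rb1 in the knockout library held 32.8 CPM in 198 macrophages (20.03 to 50.7) and 32.3 in 106 T or NK lymphocytes (14.7 to 61.2). It held 12.6 CPM in 381 Leydig cells (8.51 to 18.01). The macrophage interval began where the knockout empty-like interval ended (15.1 to 20.02 CPM), and the other intervals overlapped it. The wild type library had 42 macrophages with no Rb1 UMI, where 3 UMIs would have given 27.3 CPM, so a lower level was not detectable at this depth. The B lymphocytes were 1 wild type and 327 knockout cells. Among them, the 56 cells of a cluster with the replication and histone genes Pclaf, Hist1h2ap and Hist1h2ae among its leading genes held 41.4 CPM of Rb1 (19.8 to 76.1) and 37.2 CPM of Rbl1 (17.0 to 70.7). The 157 knockout B cells of the cluster led by Cd79a held 19.7 and 5.63 CPM, and the intervals of the 2 clusters overlapped for both genes. Rbl1 in the Pclaf cluster rested on 9 UMIs, 3 of them in 1 cell, and its interval lay above the empty-like level of 5.09 CPM. Rbl2 was at or below its free RNA level in Leydig cells (52.1 CPM), macrophages (90.2), T or NK lymphocytes (93.2) and B lymphocytes (93.1) of the knockout.

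**Figure D2:**
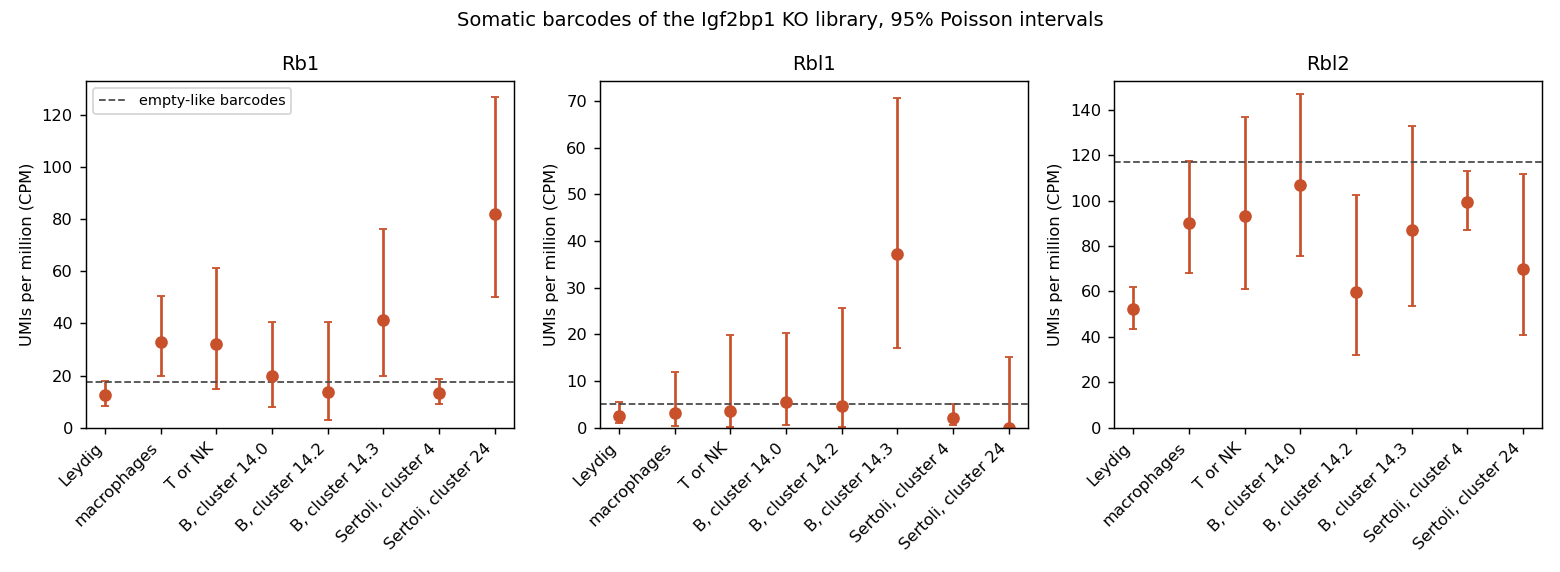
Levels (CPM) of the 3 genes in somatic classes and clusters of the knockout library, with 95% Poisson intervals and the level of empty-like barcodes as a dashed line. Rb1 reached 82.1 CPM in Sertoli cluster 24 and Rbl1 reached 37.2 CPM in the B lymphocyte cluster with Pclaf among its leading genes, while every Rbl2 point drawn lay below its dashed line. The B cluster of 27 cells led by Vpreb1 (Rb1 0 and Rbl2 141 CPM) is not drawn.

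The knockout was then compared with wild type. Of 15 pairs of a member and a class, 13 held at least 20 UMIs, and Rbl1 in elongating spermatids and in Sertoli cells did not. Of the 13, 6 were called higher in the knockout and 0 lower: Rb1 in late spermatocytes, round spermatids, elongating spermatids and Sertoli cells, Rbl1 in late spermatocytes, and Rbl2 in spermatogonia. Among all genes with at least 20 UMIs, the share called higher was 4.85% in spermatogonia, 4.52% in late spermatocytes, 3.43% in round spermatids, 6.3% in elongating spermatids and 6.41% in Sertoli cells. The shares called in either direction were 9.03%, 7.78%, 6.12%, 7.45% and 9.21% in the same order. With TMM scaling the share of calls that were higher moved from 53.7% to 42.8% in spermatogonia, from 84.6% to 70.4% in elongating spermatids and from 69.6% to 50.6% in Sertoli cells, and median-of-ratios scaling moved it from 58.0% to 47.4% in late spermatocytes. The 6 pairs were described with the Rb1 value in elongating spermatids already known.

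Rb1 was higher in the knockout in each of the 3 later germ classes. In late spermatocytes it rose from 5.88 CPM (182 UMIs) to 9.88 CPM (67 UMIs), a log2 ratio of 0.75 (0.32 to 1.16). In round spermatids it rose from 6.56 CPM (198 UMIs) to 11.01 CPM (91 UMIs), also 0.75 (0.37 to 1.11). In elongating spermatids it stood at 3.33 CPM (108 UMIs) and 7.51 CPM (96 UMIs), a log2 ratio of 1.17 (0.76 to 1.58). The library intervals did not overlap in any of these 3 classes. TMM and median-of-ratios scaling lowered every elongating value by 0.10 and 0.12 on the log2 scale, to 1.07 and 1.05 for Rb1, and it was still called. By cluster, the log2 ratio was above 0 in all 7 clusters of these classes, from 0.47 in cluster 18 to 1.41 in cluster 11. It was called in clusters 5 (0.86), 9 (0.90, the near tie of late spermatocytes and round spermatids) and 3 (1.30). No cell held more than 3 Rb1 UMIs there, and without the cell that held most in each library the elongating value was 1.18.

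**Figure D3:**
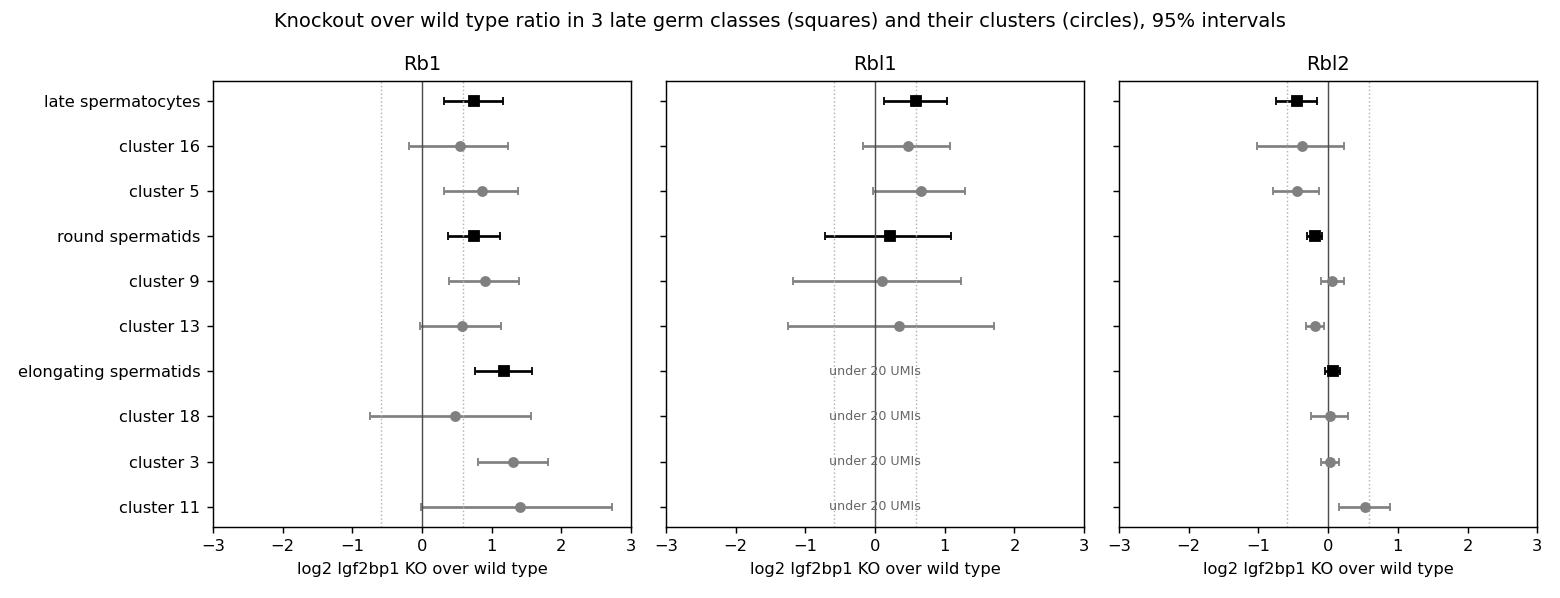
log2 ratio of knockout to wild type for the 3 genes in 3 late germ classes (black squares) and their clusters (grey circles), with 95% intervals; dotted lines mark a 1.5-fold difference. All Rb1 points lay above 0, from 0.47 to 1.41, while Rbl2 ranged from -0.45 to 0.53.

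Free RNA moved with this difference. Rb1 was higher in knockout than in wild type empty-like barcodes (17.4 against 8.45 CPM, with intervals of 15.1 to 20.02 and 6.93 to 10.2), and the summed Leydig markers went from 22.9 to 160 CPM in late spermatocytes, from 13.5 to 129 in round spermatids and from 10.6 to 127 in elongating spermatids. Taking the Leydig markers as wholly free RNA would put its share at 23.8% and 22.8% of UMIs in wild type and knockout late spermatocytes, 14.01% and 18.4% in round spermatids, and 10.98% and 18.03% in elongating spermatids. With that much of the empty-like profile subtracted, Rb1 was 3.87 and 5.90 CPM of all UMIs in late spermatocytes, 5.38 and 7.81 in round spermatids, and 2.40 and 4.37 in elongating spermatids. Relative to the UMIs that remained, the log2 ratios were 0.59 (0.03 to 1.12), 0.61 (0.17 to 1.04) and 0.98 (0.46 to 1.497). The outcome changed with the marker list. The 13 Sertoli markers went from 69.7 to 164 CPM in late spermatocytes, from 47.7 to 123 in round spermatids and from 48.8 to 121 in elongating spermatids, which gives free RNA shares of 20.5% to 33.6%. With these shares Rb1 was no longer called in late spermatocytes (0.34, -0.33 to 0.96) or round spermatids (0.54, short of 1.5-fold), and it was called in elongating spermatids (1.11, 0.48 to 1.73). The 9 macrophage markers went from 3.46 to 39.5 CPM in late spermatocytes, or 18.1% and 60.8% of their empty-like level, a share that took away more Rb1 than was measured in the knockout cells (-0.735 CPM left). In round spermatids they went from 4.38 to 16.6 CPM and left Rb1 at 0.55 (0.07 to 1.02), not called. In elongating spermatids they stood at 34.3 and 48.4 CPM, above the wild type empty-like level, so no share could be taken from them. These subtractions were chosen after seeing the data, and for Rbl2 the Leydig one took away more than was measured in spermatogonia and late spermatocytes. The Sertoli one did so for Rbl2 in late spermatocytes (-12.4 and -22.2 CPM left in wild type and knockout). In elongating spermatids Rbl1 was left at -0.034 and -0.449 CPM by the Leydig one and at -0.402 and -0.791 by the Sertoli one. Shares of this size thus exceeded what these members held there. Rcbtb2, which overlaps Rb1, stood at 48.1 and 37.9 CPM, 35.2 and 30.02 CPM, and 10.97 and 9.47 CPM in the same classes and was not called. Itm2b, the nearest gene on the other side, was not called in any class (log2 ratio -0.21 to 0.23).

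In spermatogonia Rb1 was not called. It held 24 UMIs in each library (28.2 and 38.2 CPM), with a log2 ratio of 0.44 (-0.44 to 1.32), an interval that includes the values of the later germ classes. Rbl1 had the lowest ratio of the 3 there, with 28.2 CPM (24 UMIs) and 14.33 CPM (9 UMIs) and a log2 ratio of -0.98 (-2.27 to 0.18), which was not called. Its value was below 0 in clusters 17.1 (14 and 7 UMIs), 17.3 (5 and 1 UMIs) and 17.4 (5 and 0 UMIs), and cluster 17.5 held 0 and 1 UMIs. Rbl2 was called higher, at 23.5 CPM (20 UMIs) against 44.6 CPM (28 UMIs), with a log2 ratio of 0.92 (0.04 to 1.83), and both levels lay under the 119 and 117 CPM of free RNA. The Leydig markers went from 31.7 to 310 CPM in the same cells, and their part in the Rbl2 value was not tested. That call was lost with at least 2000 UMIs per barcode (0.88), TMM scaling (0.87), Leiden resolution 2 (0.88) and thinning (1.31, -1.50 to 4.77), and the direction turned when the clusters weighed equally (-0.83), a value that depends on cluster 17.5 with 2 wild type barcodes.

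In late spermatocytes Rbl1 was called higher with the smallest margin, at 5.59 CPM (173 UMIs) and 8.40 CPM (57 UMIs), right at the 1.5-fold limit with a log2 ratio of 0.59 (0.13 to 1.03). It was not called in cluster 16 (0.47) or cluster 5 (0.65), and 8 of 13 other settings took the call away (0.18 to 0.57). Rbl2 in the same cells was 23.3 CPM (722 UMIs) and 17.1 CPM (116 UMIs), a log2 ratio of -0.45 (-0.74 to -0.16) that did not reach 1.5-fold. It was called lower after subtraction of the mean lowest-decile barcode (-1.003, -1.41 to -0.62) and at Leiden resolution 2 (-0.62, -0.89 to -0.36). It turned to 0.86 when mixed clusters took the name of their best-scoring class, which adds cluster 7 with 58 wild type and 856 knockout barcodes at 80.8 and 82.6 CPM. In spermatids Rbl2 differed little, with a log2 ratio of -0.19 (-0.30 to -0.09) in round and 0.07 (-0.04 to 0.18) in elongating spermatids, so those intervals leave out a 1.5-fold difference either way. Cluster 11 stood apart among the elongating clusters, at 45.9 and 66.1 CPM of Rbl2 (log2 ratio 0.53, 0.15 to 0.89), and was also short of the limit. Aktip, which overlaps Rbl2, followed another course over the stages (26.9, 17.8 and 106 CPM in wild type late spermatocytes, round and elongating spermatids) and was not called in any class.

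In Sertoli cells Rb1 was 8.15 CPM (10 UMIs in 652 barcodes) and 19.8 CPM (51 UMIs in 990), a log2 ratio of 1.28 (0.28 to 2.42). The class was shallow, with median depths of 1364 and 1814 UMIs, and their intervals (3.91 to 15.0 and 14.7 to 25.99 CPM) included the levels of empty-like barcodes. The Leydig markers went from 46.4 to 563 CPM in these barcodes, and their part in the value was not tested. The larger cluster 4 held 7.91 and 13.3 CPM and was not called (0.75, -0.36 to 2.00). The deeper cluster 24 held 1 Rb1 UMI in 12 wild type cells (11.2 CPM, 0.283 to 62.4) and 20 in 43 knockout cells (82.1 CPM, 50.1 to 127), which 37.2% of those knockout cells carried. With only 1 wild type UMI, the ratio there has a very wide interval (log2 ratio 2.87, 0.23 to 8.25). The class call was lost when the mean lowest-decile barcode was subtracted from each cell (1.09, -0.22 to 2.67), when each cell was named by its own markers (0.93, -0.28 to 2.43) and after thinning (0.63, -0.71 to 2.14). The value was larger with at least 2000 UMIs per barcode (2.50, 0.55 to 5.60) and with equal cluster weights (2.32, 0.53 to 4.11). Rbl2 in Sertoli cells was 90.4 and 96.5 CPM and was not called.

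The wider pathway was described by 7 lists of 74 genes. Over the 5 compared classes, 300 gene and class pairs held at least 20 UMIs, of which 17 were called higher and 6 lower. After the mean lowest-decile barcode was subtracted from each cell these counts were 21 and 20, a setting for which no shares among all genes were computed. The values that follow are without this subtraction. By class, 2 of 64 were higher and 2 lower in spermatogonia, 2 of 67 and 1 in late spermatocytes, 4 of 64 and 0 in round spermatids, 6 of 56 and 1 in elongating spermatids, and 3 of 49 and 2 in Sertoli cells. The shares called higher among all genes were 4.85%, 4.52%, 3.43%, 6.3% and 6.41% in the same order, and the shares called lower were 4.18%, 3.27%, 2.68%, 1.15% and 2.8%.

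**Figure D4:**
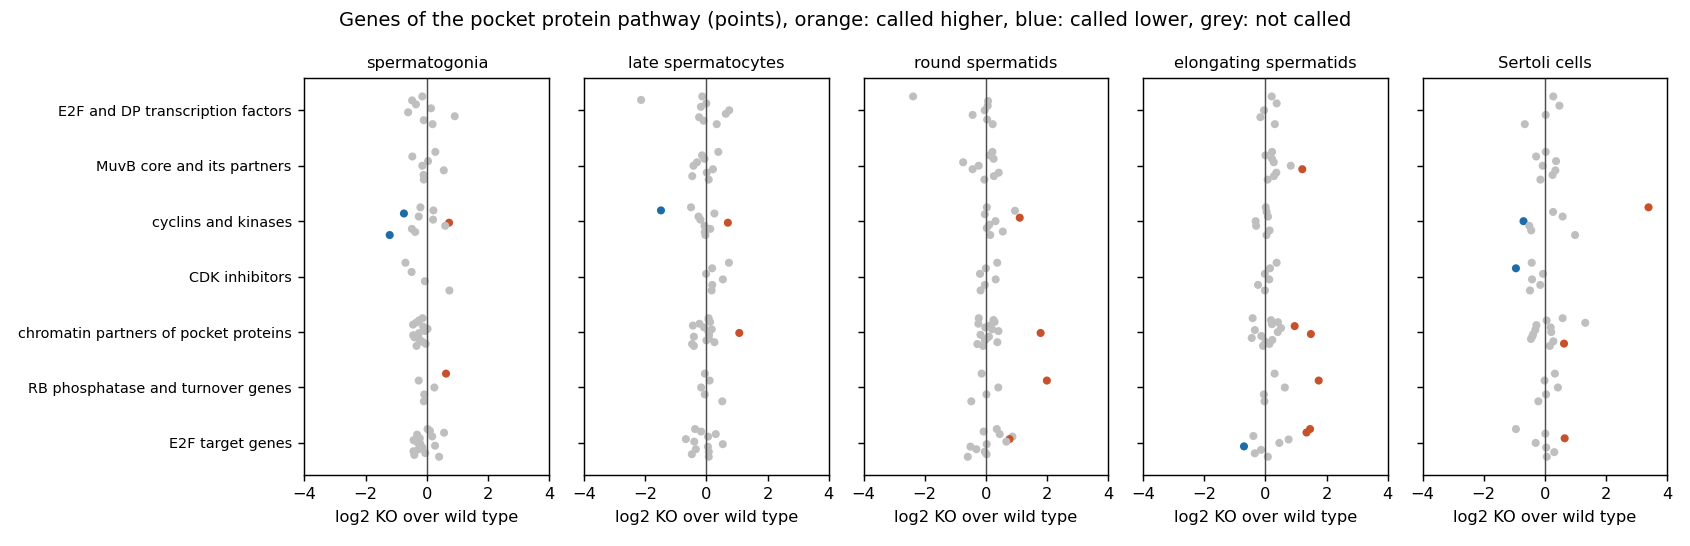
log2 ratio of knockout to wild type of pathway genes with at least 20 UMIs, by list (rows) and cell class (panels); orange points were called higher, blue points lower and grey points neither. In the E2F and DP list no gene was called in any of the 5 classes, and round spermatids held 4 orange points and 0 blue.

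The transcription factors that pocket proteins bind were not called. Of the 10 E2F and DP genes, 8 were measured in spermatogonia, 9 in late spermatocytes, 7 in round spermatids, 5 in elongating spermatids and 4 in Sertoli cells, with 0 higher and 0 lower. The list medians were -0.12, -0.09, 0.04, 0.21 and 0.15 beside 0.00, 0.02, -0.01, 0.08 and 0.12 for all genes. E2f4, the usual partner of p107 and p130 and chosen here after its values were seen, stood at 39.5 CPM in late spermatocytes of both libraries (17.6 and 21.9 CPM in empty-like barcodes). Of the 9 genes of the MuvB core and its partners, 1 was called, Lin9 in elongating spermatids (22 UMIs, 0.678 CPM, and 20 UMIs, 1.56 CPM; log2 ratio 1.21, 0.26 to 2.15). Empty-like barcodes held 9.78 and 8.46 CPM of Lin9, and the part of free RNA in its value was not tested.

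The kinases and cyclins that inactivate pocket proteins had calls in both directions. In spermatogonia Ccnd2, a D-type cyclin, went from 126 to 74.8 CPM (107 and 47 UMIs; log2 ratio -0.75, -1.28 to -0.24). Cdk6, a kinase that D-type cyclins activate, went from 51.7 to 22.3 CPM (44 and 14 UMIs; -1.21, -2.20 to -0.32). The 6 myoid or smooth muscle markers summed to 72.9 CPM in wild type and 12.7 CPM in knockout spermatogonia. Spermatogonial cluster 17.4, with Ccnd2 among its leading genes, scored second for these markers, and their part in the Ccnd2 and Cdk6 values was not tested. Ccne2, an E-type cyclin that works with CDK2, was higher in the same cells, at 84.6 and 140 CPM (0.73, 0.26 to 1.20), and again in late spermatocytes, at 20.01 and 32.6 CPM (0.70, 0.47 to 0.93). Thus 3 of 10 measured members of this list were called in spermatogonia, 2 lower and 1 higher, beside 9.03% of all genes. Ccnd1 was lower in late spermatocytes (51 and 4 UMIs; -1.48, -3.41 to -0.04), and Ccne1 was higher in round spermatids (1.29 and 2.78 CPM; 1.11, 0.30 to 1.89). In Sertoli cells Ccnd2 was higher (1 and 22 UMIs; 3.39, 0.76 to 8.75; 0.313 and 2.68 CPM in empty-like barcodes) and Cdk1 lower (35.9 and 22.1 CPM; -0.70, -1.29 to -0.10). Empty-like barcodes held 14.17 and 12 CPM of Cdk6, 7.28 and 7.86 of Ccne2, 1.88 and 2.42 of Ccnd1, 2.11 and 2.33 of Ccne1, and 19.4 and 17.01 of Cdk1. Of the CDK inhibitors with at least 20 UMIs, only Cdkn1b (p27) in Sertoli cells was called, lower at 17.9 and 9.30 CPM (-0.95, -1.84 to -0.04), with 0.0783 and 0.94965 CPM in empty-like barcodes.

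Among the chromatin partners and the phosphatase list, 2 genes were called in more than 1 germ class. Rbbp7, a histone-binding protein, was higher in late spermatocytes (3.01 and 6.34 CPM; 1.08), round spermatids (1.86 and 6.41 CPM; 1.79) and elongating spermatids (1.48 and 4.15 CPM; 1.49). Ppp1ca, a catalytic subunit of the phosphatase that dephosphorylates RB, was higher in round spermatids (0.729 and 2.90 CPM; 1.99) and elongating spermatids (0.678 and 2.27 CPM; 1.74). Both were also higher in knockout empty-like barcodes, Rbbp7 at 3.99 and 20.4 CPM and Ppp1ca at 5.09 and 8.63 CPM, and the part of free RNA in their values was not tested. Hdac2, a histone deacetylase that RB can recruit, was higher in elongating spermatids (1.05 and 2.03 CPM; 0.96), Smarca4 in Sertoli cells (33.4 and 51.5 CPM; 0.63) and Mdm2 in spermatogonia (67.0 and 103 CPM; 0.63). Empty-like barcodes held 10.2 and 12.9 CPM of Hdac2, 44.9 and 40.3 of Smarca4, and 117 and 119 of Mdm2. The part of free RNA in the values of these genes was not tested either.

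The E2F target genes of DNA replication, which pocket proteins repress, had calls in 3 of the 5 classes. In spermatogonia 0 of 16 measured were called (list median -0.18 against 0.00 for all genes) and in late spermatocytes 0 of 12. In round spermatids Mcm5, a helicase subunit, was higher (2.55 and 4.36 CPM; 0.77), as it was in empty-like barcodes (1.57 and 2.85 CPM). In Sertoli cells Mcm7 was higher (44.8 and 70.2 CPM; 0.65), below its empty-like levels (78.6 and 91.9 CPM). In elongating spermatids 3 of 9 measured were called, beside 7.45% of all genes. Pcna, the sliding clamp, was lower there (11.4 and 7.04 CPM; -0.70, -1.05 to -0.36), as it was in empty-like barcodes (61.4 and 44.6 CPM). The replication-licensing genes Cdc6 (12 UMIs in each library; 1.34) and Cdc45 (12 and 13 UMIs; 1.46) were higher, and empty-like barcodes held 3.52 and 2.50 CPM of Cdc6 and 5.40 and 5.61 of Cdc45.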

How the data were processed

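Testis cells of 1 wild type and 1 Igf2bp1 knockout library were analysed from raw UMI counts per gene and barcode, which the authors deposited as 10x matrices, per the file headers. Cell Ranger 2.2.0, STAR and genome build mm10 are named in the submitters' processing notes, while the matrix headers carry software version 3.1.0. No source used here says how barcodes were called as cells.

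Barcodes with at least 500 UMIs, 250 genes and at most 20% mitochondrial UMIs were kept (17002 and 17703). Counts were scaled to 10000 per barcode and log transformed, and 2000 variable genes and 30 principal components gave a graph of 15 neighbours, partitioned by Leiden at resolution 1 (scanpy 1.11.5, leidenalg 0.10.2, igraph 0.11.9). Clusters were named from markers of 16 classes, with numeric limits set after seeing the data. The rule that names each barcode by its own markers was replaced after a first form named almost no late spermatocytes or round spermatids. No doublets were called, and mixed clusters were left out.

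UMIs were summed per library and class, in classes of at least 50 barcodes in both libraries. Levels have exact 95% Poisson intervals and ratios exact conditional binomial intervals (scipy 1.17.1). The calculation was tested on simulated data. UMI counts of 24 and 24, as for Rb1 in spermatogonia, leave a wide interval, and 4047 and 969 a narrow one. Lowest-decile barcodes (limits 993 and 1348 UMIs) and empty-like barcodes gave the free RNA level. The 3 genes and the 7 lists were chosen with earlier results of these data known. Genes named were the members, genes that overlap or neighbour them, Igf2bp1, up to 3 called genes per list and class, and the 5 genes most like each member. Gene positions came from GENCODE (GRCm38) and promoter windows from RefSeq (GRCm38.p6). Alternatives changed the depth limit, scaling (TMM, edgeR 4.0.16), free RNA, cluster weights, naming and resolution.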

Additional observations from a re-analysis of the deposited data

How the results depend on the processing

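No paired analysis was possible because each genotype has 1 library. The count of 6 member and class pairs called higher was 4 to 6 pairs in either direction under 11 other settings. It became 2 with a limit of 2-fold, and 0 with barcodes thinned to 1000 UMIs, where few UMIs were left. Free RNA subtracted in germ classes left 4 called by the Leydig markers, a setting among the 11, and 2 by the Sertoli markers. Both subtractions gave no value for Rb1 in Sertoli cells or Rbl2 in spermatogonia, so these called pairs could not be counted there. The Rb1 log2 ratio in elongating spermatids was 0.87 to 1.21 and still called under 11 settings, and 0.31 and not called after thinning. Thinning also took the call from wild type spermatogonia over late spermatocytes for Rb1 (2.43) and Rbl1 (1.76), and from the same ratio for Rb1 in the knockout (0.996), each in the same direction. Pathway genes called went from 23 to 41 after the mean lowest-decile barcode was taken from each cell, and the cause was not tested. The share called among all genes was not computed for that setting. Rbl2 in spermatogonia reversed to -0.83 with equal cluster weights, and Rbl2 in late spermatocytes to 0.86 once mixed clusters took the name of their best-scoring class. TMM moved the median of genes by 0.03 to 0.10 on the log2 scale between libraries. Among the further values for single pairs, 104 kept sign and call, 20 lost the call, 2 gained it, the 2 above reversed, and 9 changed sign with no call before or after (-0.51 to 0.16). The macrophage marker subtraction could not be fitted in spermatogonia and elongating spermatids, nor the Sertoli one in spermatogonia, where the marker level exceeded that of free RNA. Depth limits the values of Rbl1, which held 2 to 24 UMIs per library in spermatogonia and early spermatocytes.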
